A study of Mus musculus with 6 samples.

Results

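Matrix proteases, their tissue inhibitors and the plasminogen system were examined in soleus, a postural calf muscle of slow and oxidative fibres, on 6 expression arrays from control C57Bl/6 mice. The genes were 8 of the 203 named on the array, taken by symbol from its platform annotation, each with 1 probe. They comprised the matrix metalloproteinases Mmp14 and Mmp2, the tissue inhibitors Timp1, Timp2 and Timp3, the urokinase-type plasminogen activator Plau, its receptor Plaur, and plasminogen, Plg. All 6 samples formed 1 group, described as control mice, with total RNA prepared from cryosections with the RNeasy kit and 3 µg used per array. The labels give no age, sex or treatment, and the code HUR wt in the titles is left unexplained. Nothing states that each sample came from its own animal, so p-values measure the spread between these samples only, which may be technical. A cryosection holds fibres together with connective tissue, vessels and other cells, and in such bulk RNA fewer cells of a type and less RNA per cell cannot be told apart.

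Matrix metalloproteinases are secreted or membrane-bound zinc enzymes that cleave collagens, laminins and other matrix proteins, and are made as inactive precursors. The membrane enzyme encoded by Mmp14 activates the precursor of the gelatinase encoded by Mmp2 at the cell surface. The protein of Timp2 takes part in this step as a bridge between them, while at higher amounts it inhibits both enzymes. Plasmin arises from plasminogen, a plasma protein made mainly in the liver, when urokinase bound to its receptor cleaves it, and plasmin in turn degrades matrix and can activate some metalloproteinases. In skeletal muscle both systems are known for the remodelling of the matrix around fibres and capillaries.

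The promoters of Mmp14 and Timp2 are shown because these genes had the highest Pearson's r of the set when arrays were centred on their medians, a rank that other scalings change. Each sequence is the 250 bases before the gene start in RefSeq on GRCm38.p6, 5′ to 3′ on the gene's strand, at chr14:54431348-54431597 (plus strand) for Mmp14 and chr11:118355412-118355661 (minus strand) for Timp2. Capitals mark matches to GGGCGG, the GC box.
Mmp14: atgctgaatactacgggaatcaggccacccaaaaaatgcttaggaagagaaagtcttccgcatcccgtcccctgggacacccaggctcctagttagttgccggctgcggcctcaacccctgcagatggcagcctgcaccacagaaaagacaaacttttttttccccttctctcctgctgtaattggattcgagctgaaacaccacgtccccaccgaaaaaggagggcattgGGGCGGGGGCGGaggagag
Timp2: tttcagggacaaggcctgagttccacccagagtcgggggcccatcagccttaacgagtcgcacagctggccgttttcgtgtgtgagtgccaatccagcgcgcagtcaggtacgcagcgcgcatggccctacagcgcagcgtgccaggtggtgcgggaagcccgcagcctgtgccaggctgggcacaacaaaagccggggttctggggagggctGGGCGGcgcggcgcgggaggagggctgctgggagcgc
Both promoters held the GC box close to the start, with 2 matches in Mmp14 and 1 in Timp2. The GC box was searched on both strands, as were the TATA box and the AP-1 site, written TATAAA and, for the latter, TGANTCA. RefSeq promoters were at hand for 5 of the 8 genes, and all 5 had a GC box: Timp1 and Timp3 had 1 match each and Plaur 3, of which the last 2 shared a base. The GC box was found in 32.7% of the 32851 RefSeq promoters of the same length. TATAAA was in none of the 5 windows and in 12.4% of all promoters. TGANTCA was in 1 of the 5, that of Plaur, against 6.75% of all. A match describes the letters in the window and says nothing of binding.

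The inhibitors were detected throughout, while the proteases and the plasminogen system were near or under the limit of detection. A value was called detected when it exceeded the noise bound of its array, taken as the absolute value of its lowest, negative intensity. All 18 values of the 3 Timp probes were detected. For Mmp14 and Mmp2 it was 7 of 12 values (58.3%), and for Plau, Plaur and Plg 8 of 18 (44.4%). Over all 223 probes, 66.4% of values were detected, and 47.5% of the probes were detected on all 6 arrays. Signal against the bound depends on each probe's affinity as well as on the transcript, so the counts describe detection on this array and do not rank transcripts. The Timp counts were the same under each of the 3 other bounds tried, while the Mmp count ran from 4 to 12.

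**Figure D1:**
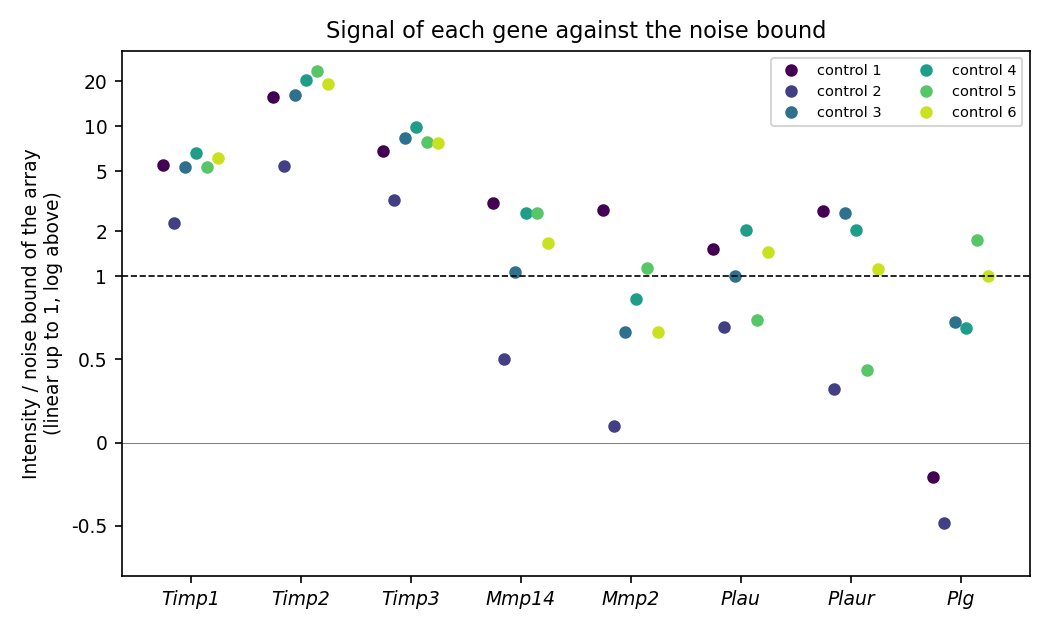
Intensity divided by the noise bound of its array (vertical axis, linear up to 1 and logarithmic above) for each of the 8 genes; each point is 1 of the 6 control arrays and the dashed line is the bound. Every Timp1, Timp2 and Timp3 point lies above the line, from 2.26 to 23.6, while each of the other genes has points at or below it.

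Timp2 gave the clearest signal of the set. Its deposited intensities in controls 1 to 6 were 0.0538, 0.0337, 0.0537, 0.1768, 0.0543 and 0.0347, between 5.44 and 23.6 times the bound. Array brightness differed, with control 4 far the brightest, so intensities were set on a log2 scale relative to the median of their array, which is called the level here. The Timp2 levels in controls 1 to 6 were 1.74, 1.24, 1.16, 1.58, 1.40 and 1.11, or 1.37 ± 0.25 (SD, n = 6). Controls 1 and 4 were high, controls 3 and 6 low, and the whole range was 1.55-fold. Of the 152 genes and unnamed probes measured on all arrays, Timp2 had the 12th smallest SD, and the median SD was 0.54.

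Timp1 and Timp3 had SDs of 0.36 and 0.35 and were high and low in nearly the same samples. Timp1, a soluble inhibitor induced in many tissues under injury, had intensities of 0.0187, 0.0140, 0.0178, 0.0580, 0.0124 and 0.0111. Its levels in controls 1 to 6 were 0.22, -0.03, -0.44, -0.03, -0.73 and -0.53, or -0.26 ± 0.36 (SD, n = 6), a range of 1.92-fold. Control 1 was the highest and control 5 the lowest. Timp3, whose protein binds to the matrix and also inhibits sheddases, had intensities of 0.0233, 0.0201, 0.0276, 0.0860, 0.0181 and 0.0139. Its levels were 0.53, 0.49, 0.20, 0.54, -0.18 and -0.21, or 0.23 ± 0.35 (SD, n = 6), a range of 1.68-fold. Controls 1, 2 and 4 lay close together at the top, and controls 5 and 6 at the bottom.

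The ratio of Timp1 to Timp3 within an array was among the steadiest on the array. Such a ratio is the same under any scaling that shifts a whole array by 1 factor. Its SD was 0.14 after quantile or cyclic loess normalization, which change probes unequally. Its log2 values in controls 1 to 6 were -0.32, -0.52, -0.63, -0.57, -0.55 and -0.32, with an SD of 0.13 and a range of 1.24-fold. Of all 11476 pairs of measured features, 0.148% had an SD of the log2 ratio this small or smaller, and the median was 0.80. The ratio of Timp2 to Timp3 had an SD of 0.29, which 5.64% of pairs reached. The pair of Timp1 and Timp3 was singled out after the values were seen, and no test was made of its ratio.

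The proteases lay much nearer the bound. Mmp14 had intensities of 0.0104, 0.0031, 0.0035, 0.0231, 0.0061 and 0.0030 in controls 1 to 6, and all but that of control 2 were above the bound, that of control 3 by 1.06 times. Its levels were -0.63, -2.21, -2.78, -1.36, -1.75 and -2.42, or -1.86 ± 0.78 (SD, n = 6). Control 1 was the highest, followed by control 4, and the highest was 4.45 times the lowest, in control 3.

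Mmp2 was detected in controls 1 and 5 alone, at 2.77 and 1.13 times the bound. Its intensities were 0.0094, 0.0006, 0.0022, 0.0075, 0.0026 and 0.0012, deposited to 4 decimals, so the smallest had a single significant digit. The levels were -0.78, -4.57, -3.45, -2.98, -2.98 and -3.74, or -3.09 ± 1.28 (SD, n = 6). Control 1 stood well above the other samples. Without it the SD was 0.66. With every value raised to at least its array's bound, control 6 was the lowest, and control 1 was at least 5.21-fold above it. As measured, control 1 was 13.9-fold above control 2. The bound of control 2 lay highest, at a level of -1.21 against -2.24 to -3.16 in the other samples. Raised to it, control 2 had a level of -1.21, against -0.78 in control 1.

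The plasminogen system gave detected values in some samples only. Plau had intensities of 0.0052, 0.0043, 0.0033, 0.0178, 0.0017 and 0.0026 in controls 1 to 6 and exceeded the bound in controls 1, 4 and 6, while in control 3 it equalled it. Its levels were -1.63, -1.73, -2.87, -1.74, -3.60 and -2.63, or -2.36 ± 0.80 (SD, n = 6). Controls 1, 2 and 4 were high and control 5 low, although the values of controls 2 and 5 were below the bound.

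Plaur was detected in controls 1, 3, 4 and 6, with intensities of 0.0093, 0.0020, 0.0087, 0.0177, 0.0010 and 0.0020. Its levels were -0.79, -2.84, -1.47, -1.74, -4.36 and -3.00, or -2.37 ± 1.29 (SD, n = 6). Controls 1, 3 and 4 were high and control 5 was the lowest, although the values of controls 2 and 5 were below the bound. With values raised to the bound the SD was 0.97 and control 1 was at least 5.16-fold above the lowest sample, against 11.9-fold as measured, and without control 5 the SD was 0.94. Plg had intensities of -0.0007, -0.0030, 0.0024, 0.0060, 0.0040 and 0.0018, above the bound in control 5 alone, at 1.74 times. It was at or below 0 in controls 1 and 2 and was therefore given no level. The hepatocyte markers Alb, Ttr and Apoa1 were not among the named probes.

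**Figure D2:**
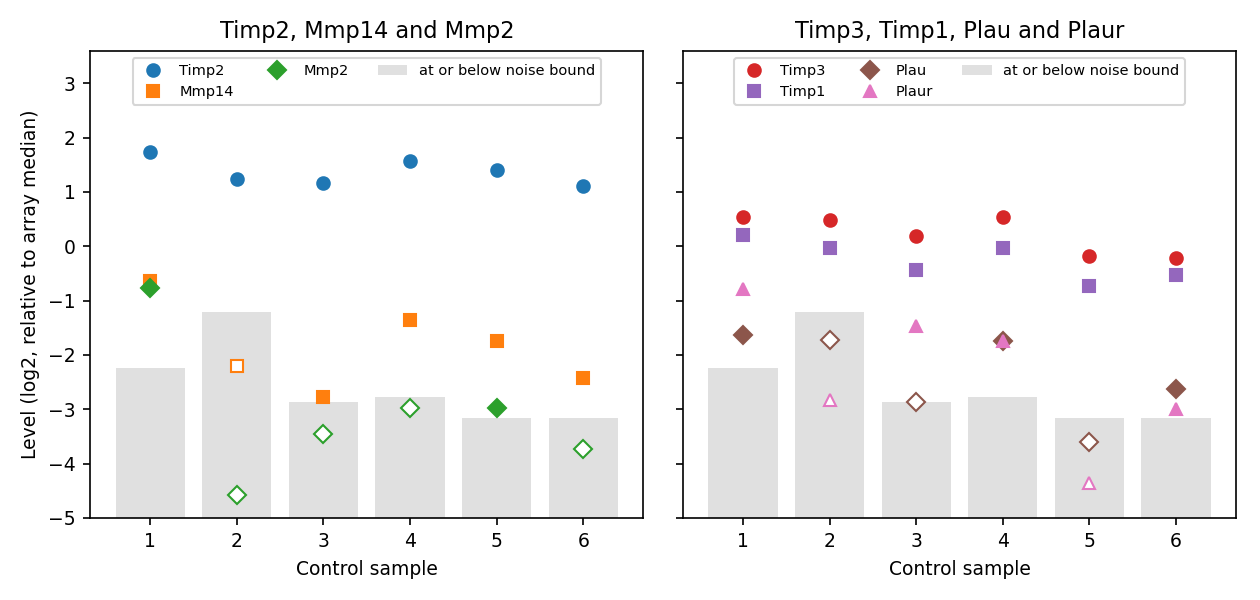
Level (log2 intensity relative to the array median) of the 7 measured genes in control samples 1 to 6; each symbol is 1 array, filled where the intensity exceeded the noise bound and open where it did not, and grey bars reach up to the bound of that array. Timp1, Timp2 and Timp3 stay within 2-fold, whereas Mmp2 and Plaur spread over 3.80 and 3.57 log2 units, with their lowest values inside the grey.

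None of the 7 measured genes passed a test for spread beyond that of features of like intensity. In a one-sided F test of each variance against the intensity-dependent prior of limma, the adjusted p of the 7 genes ran from 0.911 for Plaur to 0.988 for Timp2, and 0 of 7 had an unadjusted p under 0.05. Among all 152 features 1.32% passed at an adjusted p of 0.05, and 9 had an unadjusted p under 0.05. The SD of Timp2 was 0.25 where the prior for its intensity was 0.48, and that of Plaur was 1.29 against 0.90.

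Mmp14 and Timp2 took nearly the same order over the samples, though no pair of genes passed the test after adjustment. Both were highest in control 1, then in controls 4, 5 and 2, and lowest in controls 3 and 6. Pearson's r was 0.974 (two-sided exact permutation p = 0.00278, adjusted p = 0.196 over all 11476 pairs) and Spearman's rho 0.943 (exact permutation p = 0.0167, adjusted p = 0.254). When controls 1 and 3 were left out, being farthest from the Mmp14 median, r was 0.997. Of the few samples then left, control 2 had Mmp14 below the bound, at 0.5 times. Leaving out 1 sample at a time gave r from 0.946 to 0.988. The smallest p that the 720 pairings can give is 0.0014, and over all pairs 0 (0%) passed at an adjusted p of 0.05 by either measure. At an unadjusted p under 0.05 there were 1912 pairs by r (16.7%) and 1330 by rho.

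The sizes of the changes differed. In limma's regression a step of 1 in the log2 level of Mmp14 went with 0.31 ± 0.23 (SE) in that of Timp2 (adjusted p = 0.773 over 151 features). In the reverse regression the slope of Mmp14 on Timp2 was 3.06 ± 1.15 (SE, adjusted p = 0.731). Both SEs and p-values rest on variances moved towards limma's intensity-dependent prior, so they do not measure the scatter of this pair alone. The log2 ratio of Timp2 to Mmp14 within an array was not constant. Its values in controls 1 to 6 were 2.37, 3.44, 3.94, 2.94, 3.15 and 3.53, an SD of 0.54 and a range of 2.97-fold, lowest where Mmp14 was highest. Of all pairs, 26.8% had an SD of the log2 ratio this small or smaller, and the median was 0.80. Mmp14 lay near the bound, and the prior SD was 0.79 at its intensity, against 0.48 at that of Timp2. The r of the genes was 0.658 after quantile normalization, 0.736 after cyclic loess and 0.819 with values raised to the noise bound. For this pair, raising changed the value of Mmp14 in control 2 alone, from -2.21 to -1.21. Under these settings the r of Timp1 and Timp3 was higher, at 0.922, 0.929 and 0.932.

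Mmp2 was highest in control 1 like both of these genes, and its lowest level, in control 2, was a value below the bound. With Mmp14 its r was 0.826 (exact permutation p = 0.0444, adjusted p = 0.284 over all pairs) and rho 0.714 (exact permutation p = 0.136, adjusted p = 0.459). With Timp2 its r was 0.834 (exact permutation p = 0.0222, adjusted p = 0.236) and rho 0.771 (exact permutation p = 0.103, adjusted p = 0.412). Only controls 1 and 5 had both Mmp2 and Mmp14 above the bound. Without controls 1 and 3, r of Mmp14 and Mmp2 was 0.742, and without control 1 alone it was 0.489. The relation of Timp2 and Mmp2 had r = 0.597 without control 1 and 0.503 with values raised to the bound. Raising moved Mmp2 in control 2 from -4.57 to -1.21, since the bound of that array lay highest. The r of Timp2 and Mmp2 was 0.919 when controls 1 and 2, the extremes of Mmp2, were left out. Of the samples then left, Mmp2 exceeded the bound in control 5 alone. Whether r differed between the pairs was not tested.

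**Figure D3:**
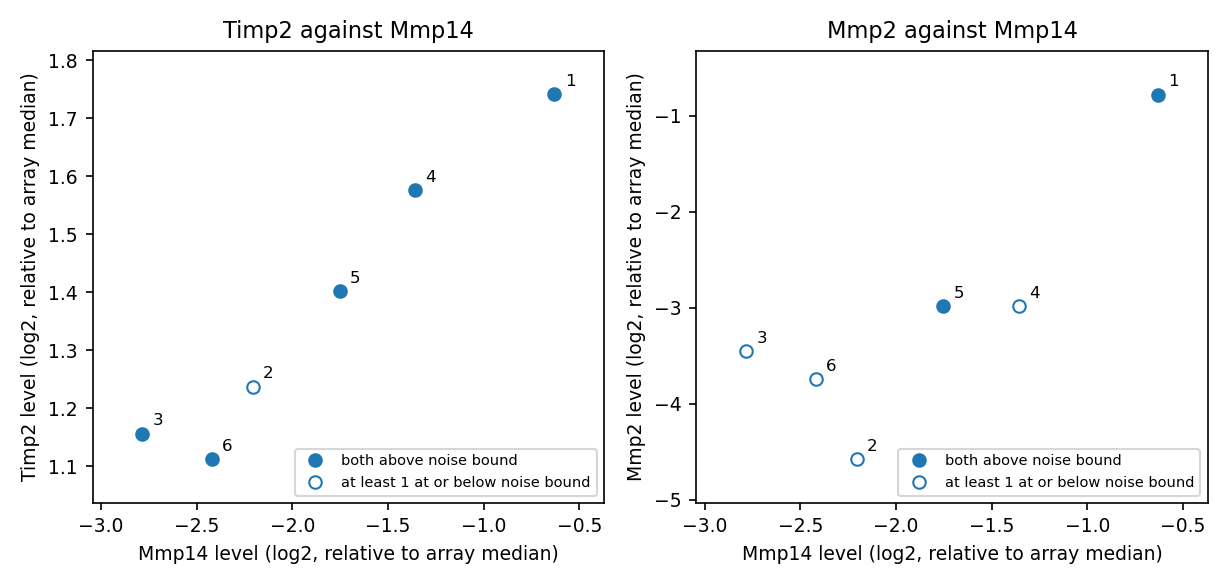
Level of Timp2 (left) and of Mmp2 (right) against that of Mmp14, all as log2 relative to the array median; each point is 1 of the 6 control arrays, labelled with its number, filled where both genes exceeded the noise bound and open otherwise. On the left the points lie near a line (r = 0.974), and on the right control 1 lies apart and 4 of 6 points are open.

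A further grouping joined Timp1, Timp3 and Plau, and it was picked out after the values were seen. Timp1 had r = 0.953 with Plau (exact permutation p = 0.00972, adjusted p = 0.205 over all pairs) and rho = 0.943 (exact permutation p = 0.0167, adjusted p = 0.254). Its r with Timp3 was 0.932 (exact permutation p = 0.0111, adjusted p = 0.205) and its rho 0.771 (exact permutation p = 0.103, adjusted p = 0.412). When controls 1 and 5, the extremes of Timp1, were left out, r was 0.951 with Plau and 0.936 with Timp3. Over all samples the r of Timp1 and Plau was 0.76 after quantile normalization, 0.772 after cyclic loess and 0.907 with values raised to the noise bound. Plau was above the bound in 3 samples, so its relation rests in part on values without a reliable size. For urokinase and its receptor r was 0.668 (exact permutation p = 0.164, adjusted p = 0.452) and rho was 0.6 (exact permutation p = 0.242, adjusted p = 0.585). Without controls 3 and 5 that r was 0.655, and without control 5 alone it was 0.219.

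All 21 pairs among the 7 measured genes had r above 0, where 52.7% of all pairs did, and their median r was 0.62 against 0.06 over all pairs. Without control 1, 15 of the 21 were above 0 and 6, with Mmp2 or Plaur in each, below it, and the median was 0.32, against 51.2% of all pairs above 0. An unadjusted exact permutation p under 0.05 was reached by 6 of the 21, beside 16.7% of all pairs. The 21 pairs share 7 genes and 6 arrays and are not independent. Of the 7 genes, 6 had their highest level in control 1, as did 33.6% of all features, and the exception, Timp3, had its highest in control 4. This number was 5 to 7 under the other scalings and with values raised to the bound, but 1 without centring, where 6 were highest in the bright control 4. Control 1 also had 143 probes above the noise bound, against 109 in control 2 and 153 to 166 in the others. The part of array quality in these relations was not tested.

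**Figure D4:**
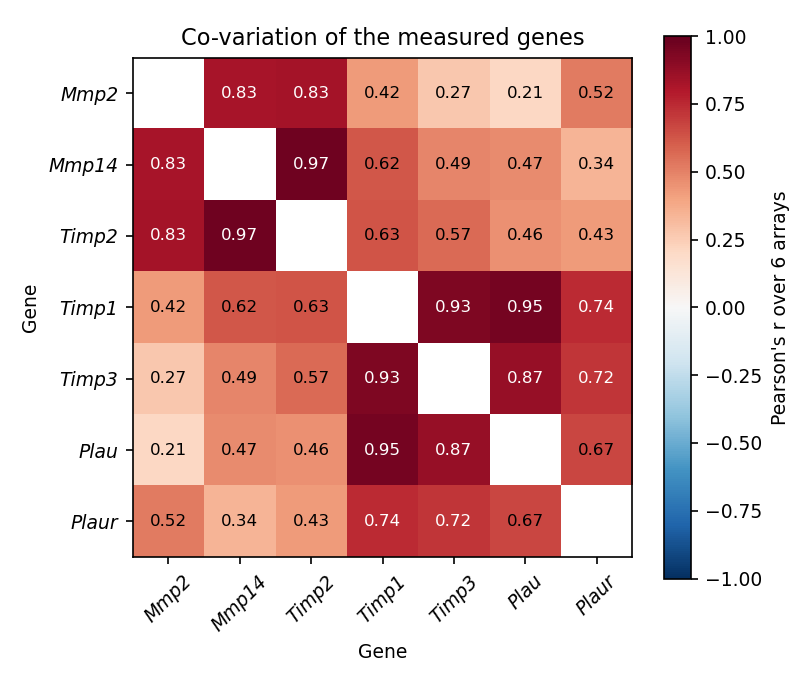
Pearson's r over the 6 control arrays for each pair of the 7 measured genes (rows and columns), with colour and printed value giving r. The highest values join Mmp14 with Timp2 (0.97) and Timp1 with Plau (0.95) and Timp3 (0.93), while Mmp2 has 0.21 with Plau.

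Other genes listed for matrix proteases and the plasminogen system gave little signal, and proteases outside these lists were not examined. Of 6 further metalloproteinases, the stromelysins Mmp3 and Mmp10, the collagenase Mmp8, the gelatinase Mmp9, Mmp11 and the macrophage elastase Mmp12, 5 were detected in none of the samples. The exception was Mmp10, whose intensities were 0.0033, -0.0005, 0.0021, 0.0042, 0.0033 and 0.0016, and the one above its bound was that of control 5. Plat, the tissue-type plasminogen activator, was detected in control 1, at an intensity of 0.0052. Hgf, a growth factor whose precursor is cleaved by plasminogen activators and related proteases, was detected in controls 5 and 6. None of these 8 genes was above 0 on all arrays, so none has a level here.

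Among genes of matrix and adhesion, 13 of the 15 on the array were measured in all samples, and 10 of the 13 had r above 0 with Mmp14, as had 97 of all 151 other features (64.2%). Their median r was 0.57 with Mmp14 and 0.55 with Timp2, where the medians over all other features were 0.20 and 0.21. In limma's regression on the level of Mmp14, 0 of the 13 passed at an adjusted p of 0.05, as did 0 (0%) of all 151 features. At an unadjusted p under 0.05 it was 2 of the 13 and 7 (4.64%) of all, and the regression on Timp2 gave the same totals of 0 and 7. The genes were chosen with earlier results on co-variation of matrix genes on these arrays known, Mmp14, Timp2 and Mmp2 included. These values are therefore no independent support for co-variation, and no pair of features passed after adjustment.

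Among the genes detected on all arrays, the patterns most like Mmp14 were those of Timp2 (r = 0.974 over 6 samples), the matrix glycoprotein Fn1 (0.860), the transcription factor Jund (0.853), the integrin subunit Itgb1 (0.809) and the IGF binding protein Igfbp4 (0.778). The least like were the fatty acid carrier Fabp3 (-0.633), the growth factor Igf2 (-0.633) and the endothelial adhesion gene Pecam1 (-0.619). For Timp2 the nearest, beside Mmp14, which was not detected on all arrays, were Fn1 (0.869), Itgb1 (0.811), Jund (0.793), the laminin chain Lamc1 (0.764) and the receptor Igf2r (0.761). The least like Timp2 were the cyclin Ccna1 (-0.678), Pecam1 (-0.651) and the glycoprotein Tnc (-0.644). For Mmp2 they were Lamc1 (0.909), the transcriptional regulator Cited2 (0.846), the myosin heavy chain Myh1 (0.837), Timp2 (0.834) and the receptor Fgfr1 (0.831), and at the other end Ccna1 (-0.891), the growth hormone receptor Ghr (-0.823) and Igf2 (-0.822). Over these 24 relations the exact permutation p of r ran from 0.00278 to 0.188 and the adjusted p from 0.196 to 0.477 over all pairs. Spearman's rho of Mmp2 was only 0.43 with Lamc1, 0.37 with Cited2 and 0.14 with Myh1, against 0.77 with Timp2 and 0.83 with Fgfr1. Mmp2 itself was detected in controls 1 and 5 alone.

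Markers of fibroblasts, a main source of matrix enzymes in muscle, were highest in control 1, as were 33.6% of all features. Of the 7 markers listed, Fn1 and Pdgfra were on the array. Fn1 had levels of 3.01, 2.24, 2.10, 2.29, 2.58 and 1.86 in controls 1 to 6, from the 1 of its 2 probes that was detected, and Pdgfra had -0.44, -2.58, -2.19, -2.35, -2.07 and -2.68. Their mean was 1.29 in control 1 and -0.41 to 0.25 in the other samples, and Pdgfra was below the noise bound in control 2. The 5 endothelial markers were divided: Flt1, Pecam1 and Cdh5 were lowest in control 1, Tek was highest there and Kdr was highest in control 2, followed by control 1. Their mean was -0.12 in control 1 and 0.15 to 0.55 in the others. The mean over 7 muscle fibre markers, all detected on all arrays, was 4.65 to 5.50 and highest in controls 1 and 2. Of these 7 markers, 4 were highest in control 1. The adipocyte markers Fabp4 and Lpl were highest in control 2. Of the satellite cell list, Myog was highest in control 2 and Myod1, detected in 4 samples, in control 5, while Myf5 was detected in none. The macrophage and blood list was represented by Csf2rb alone, detected in 4 samples, and the nerve list by no named probe. The part of these cell types in the relations among proteases and inhibitors was not tested.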

How the data were processed

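The values were the intensities deposited by the authors, 1 per probe and array for 223 probes, on a linear scale and partly below 0. How the scanner's signal was corrected and scaled is not stated in the labels or the file. Probes were named from the platform annotation (205 with 1 gene, 0 with several, 18 with none), and all 8 symbols matched the RefSeq gene table. Probes above 0 on all 6 arrays (153) were brought to log2, the 2 probes of Igf1 were averaged, and each array was centred on its median over the resulting 152 features. Spread and regression were fitted over all features in R 4.3.3 (limma 3.58.1, statmod 1.5.0), with a robust, intensity-dependent prior. Correlations were tested two-sided over all 720 pairings, an exact permutation test. Adjustment was Benjamini-Hochberg over all features or pairs, at 0.05. The scripts were tested on simulated data.

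The genes and gene lists were chosen with earlier results of these data known. Named are the 8 genes, the listed genes of their pathways, and for Mmp14, Timp2 and Mmp2 the 5 features with the highest and 3 with the lowest r among genes detected on all arrays. The number of arrays limits the precision. Cross-hybridisation was not checked, since no probe sequence was used, and no gene coordinates are given beyond the RefSeq promoters.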

Additional observations from a re-analysis of the deposited data

How the results depend on the processing

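The count of genes that followed Timp2 in limma's regression, 0 as reported, was 98 without centring, where each level carries the brightness of its array. It was 1 with values raised to the noise bound and 1 with the filter of above 0 on at least 4 arrays. In both cases this was the angiotensin receptor Agtr2, with a negative slope (adjusted p = 0.0197 and 0.0397). The count for Mmp14 was 0 under every alternative run. The median SD of the measured genes, 0.78, was 0.35 when genes had to exceed the bound on at least 4 arrays, which removed Mmp2 and Plau. Under that filter the relations with Mmp2 have no value. No relation among Mmp14, Timp2 and Mmp2 changed sign or passed after adjustment under any alternative run. The r of Timp2 and Mmp2 was 0.963 after cyclic loess and 0.860 after quantile normalization. The number of detected values was 33 of 48 and ran from 26 with 2 times the bound to 46 with any value above 0. No paired analysis was possible because the samples form 1 group.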

Other observations

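Vcam1, an adhesion molecule of activated endothelium, and Agtr2, the type 2 angiotensin receptor, had the smallest unadjusted p in the regressions on Mmp14 and on Timp2, both with negative slopes. They were singled out after the values were seen. In controls 1 to 6 the levels of Vcam1 were -5.33, -2.21, -2.24, -3.66, -2.68 and -2.68, with r = -0.921 against Mmp14 (limma adjusted p = 0.773). It exceeded the noise bound in controls 3, 5 and 6 alone. Its lowest levels, in controls 1 and 4, and its highest, in control 2, were thus values below the bound. Those of Agtr2 were -5.01, 0.03, -0.09, -0.67, 0.63 and 1.19, with r = -0.805 against Mmp14 (limma adjusted p = 0.773), and it exceeded the bound in all but control 1. Without control 1, r against Mmp14 was -0.371 for Agtr2 and -0.820 for Vcam1. Against Timp2, r of Agtr2 was -0.815 over all samples and -0.602 without control 1. That of Vcam1 was -0.897 and -0.81. Agtr2 was also among the features that passed the F test for spread (adjusted p = 0.0496). Vcam1 and Agtr2 were both lowest in control 1, where Mmp14, Mmp2 and Timp2 were highest.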
